A study of Mus musculus with 24 samples.

Results

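The comparison set the second batch against the first within 1 sorted population of mouse tracheal epithelium, the cells labelled BCAM HI. Its members were the libraries with that label: 8 of the 24 in the series, 5 of batch 1 (BCAM high 1 to 5) and 3 of batch 2 (BCAM high 6 to 8). All came from untreated wild-type female mice, and the series title gives C57BL/6 as the strain. The labels name no treatment, allele or age that differs between the batches, so no factor of the study separates them, and they do not say what a batch stands for or how many animals a library pooled. What a batch stands for and the batch itself therefore cannot be told apart, and p-values measure only the spread between these libraries, which may be technical. Each library held RNA of 1000 sorted cells, amplified with SmartSeq2. The other sorted populations, BCAM low and differentiated, have the same 5 and 3 libraries and were used only to ask whether a batch difference was also seen there.

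BCAM is a laminin-binding surface glycoprotein, and high levels mark basal cells, the stem cells of the airway surface. Basal cells rest on the basement membrane through integrins and hemidesmosomes, express the transcription factor p63 with keratins 5 and 14, and give rise to secretory and ciliated cells. In the mouse trachea the surface epithelium also makes innate defence proteins, metabolizes foreign compounds, and is known to answer interleukin-4 and interleukin-13 through STAT6. Most cells also run a circadian clock, in which CLOCK and BMAL1 (gene Arntl) drive Per, Cry, Nr1d and Dbp family genes through E-boxes, and the products of the Per, Cry and Nr1d genes repress the activators.

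Estimated counts totalled 2975163 to 3686896 per library in batch 1 and 2318444 to 2856601 in batch 2. Genes with a count numbered 17474 to 18952 in batch 1 and 16649 to 16967 in batch 2. Expression is given as CPM, estimated counts relative to the scaled library size. CPM of BCAM low and differentiated libraries is relative to the unscaled total, so it is not on the same scale. Between libraries, the correlation of log2 CPM over genes (genes are no independent replicates) was 0.924 to 0.936 within batch 1, 0.916 to 0.922 within batch 2 and 0.863 to 0.904 between batches. The first principal component held 34.4% of the variance and placed every library of batch 1 below 0 and every library of batch 2 above 0. BCAM high 6 stood apart from 7 and 8 on the second component, which held 13%. Basal marker genes were present throughout: Krt5 was at 1482 to 2517 CPM, and all 15 genes of the basal list had counts in all 8 libraries.

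Of 12278 genes tested, 890 were higher and 638 lower in batch 2 at a Benjamini-Hochberg adjusted p under 0.05 by edgeR's quasi-likelihood test, written edgeR QL from here on. These calls are 7.25% and 5.2% of the genes tested, and the median log2 change of all genes was -0.01. Libraries of the batches did not overlap for 1247 genes that were higher (10.2%) and 1090 that were lower (8.88%). Among the calls, 317 higher and 191 lower genes changed by at least 1 on the log2 scale, and 36 and 14 by at least 3. The 3 libraries of batch 2 differed in their weight: without BCAM high 6 the calls were 475 and 343, without BCAM high 7 they were 485 and 311, and without BCAM high 8 they were 950 and 740. Limma on log2(TPM + 1) called 335 and 130 genes, so that 72% of its calls were higher against 58.2% above, and log2(TPM + 0.1) called 294 and 119, 71.2% higher. On these TPM scales the median of all genes tested moved to 0.12 and 0.14. Against a minimum change of 1 on the log2 scale (glmTreat) 61 and 22 genes were called, 73.5% higher, and 32 of the 124 called genes that the naming rule selects were among them.

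The 12 largest increases were in genes with little expression in batch 1, at most 15.1 CPM in every batch 1 library apart from Chil4 and Tg in BCAM high 5. Chil4, a chitinase-like secreted protein, had 0, 0, 1.15, 0 and 212 CPM in batch 1 and 35234, 34510 and 38165 CPM in batch 2. This 1 gene thus took 3.45% to 3.82% of the scaled counts of each batch 2 library, while 4 of the 5 batch 1 libraries held almost none. The fitted log2 change was 9.70 (SE 2.38, edgeR QL, BH-adjusted p = 0.0495). Without any 1 of the libraries other than BCAM high 5 the change was 9.38 to 9.73 and the call was lost (edgeR QL, BH-adjusted p 0.0771 to 0.123), whereas without BCAM high 5 the change was 16.62 and was called. The call was also lost with no filter on low counts (0.0828) and with transcript length offsets (0.0866).

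Clca1, a secreted regulator of chloride channels in goblet cells, had 3.57, 5.25, 0.288, 0 and 15.1 CPM in batch 1 and 910, 972 and 1086 CPM in batch 2. The groups lay far apart, with a log2 change of 7.62 (SE 0.81, edgeR QL, BH-adjusted p = 0.00209), which was 8.73 without BCAM high 5. Pla2g4c, a cytosolic phospholipase A2 that releases fatty acids from membranes, was at 0.974, 0, 0, 0.693 and 1.70 CPM against 270, 246 and 221 CPM. Its log2 change was 8.41 (SE 0.33, edgeR QL, BH-adjusted p = 2.36e-10). Hpgds, which makes prostaglandin D2, was at 5.52, 4.94, 5.48, 1.73 and 5.12 CPM against 82.1, 116 and 91.8 CPM. It changed by 4.38 (SE 0.25, edgeR QL, BH-adjusted p = 9.72e-12).

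Members of the gasdermin C family, pore-forming proteins, moved in the same direction. Gsdmc2 had 0, 0.926, 0.577, 0.693 and 10.5 CPM in batch 1 and 898, 678 and 849 CPM in batch 2 (log2 change 8.21, SE 0.80, edgeR QL, BH-adjusted p = 0.00148). Without BCAM high 5 the Gsdmc2 change was 10.41. No read of Gsdmc3 was counted in any batch 1 library, and batch 2 had 118, 44.4 and 100 CPM. Against a floor of 3 counts over the 5 batch 1 libraries that is at least 482-fold higher, a bound that covers counting error only. These genes are close copies of each other, as are Chil4 and Chil3, so that the share of reads each receives is uncertain. Chil3 was at 20.1 to 29.9 CPM in batch 2 and at most 1.44 CPM in batch 1.

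Fer1l6, of the ferlin family of membrane proteins, was at 0.650, 0.309, 1.44, 2.08 and 0.284 CPM in batch 1 and 155, 181 and 131 CPM in batch 2, and had the smallest adjusted p among the increases named here (log2 change 7.33, SE 0.29, edgeR QL, BH-adjusted p = 5.25e-14). The potassium channel gene Kcnj15 went from 0.577 to 1.62 CPM up to 63.6 to 76.6 CPM (5.89, SE 0.29, edgeR QL, BH-adjusted p = 1.28e-12). Pigr, the receptor that carries IgA across epithelia, was at 3.57, 3.70, 2.88, 7.63 and 6.82 CPM against 147, 219 and 151 CPM. Its change of 5.13 (SE 0.24, edgeR QL, BH-adjusted p = 9.72e-12) and that of the lipoxygenase gene Alox12e, 4.53 (SE 0.35, BH-adjusted p = 2.26e-09), completed the group of large and uniform increases.

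Retnla, a small secreted resistin-like protein, and Tg, the thyroid hormone precursor, were uneven within batch 2. Retnla had at most 1.73 CPM in batch 1 and 147, 15.9 and 17.3 CPM in batch 2, so BCAM high 6 carried most of it. Its change of 6.16 (SE 1.15, edgeR QL, BH-adjusted p = 0.0189) was no longer called without BCAM high 1, 2 or 5 (5.98 to 6.33, BH-adjusted p 0.0512 to 0.0594) or by limma voom (0.313). Tg is described with the thyroid genes further on.

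**Figure D1:**
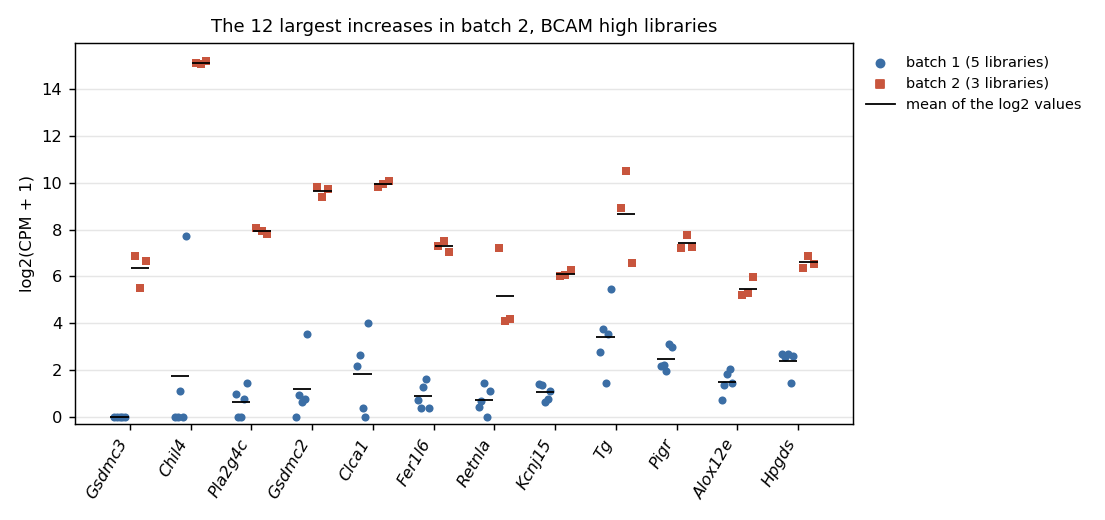
Expression of the 12 protein-coding genes with the largest called increases, as log2(CPM + 1) per library, for 5 batch 1 libraries (circles) and 3 batch 2 libraries (squares), with a line at the mean of the log2 values. Batch 1 values lie near 0 for most genes, Chil4 in BCAM high 5 (212 CPM) is an exception, and no gene has overlapping batches.

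Other genes known in mouse airway epithelium as targets of interleukin-13 were looked up after these values had been seen, so they are described without any count or test of the group. Fcgbp, a mucus protein, was at 7.39 to 16.6 CPM in batch 1 and 88.2 to 138 CPM in batch 2, a log2 change of 3.36 (SE 0.23, edgeR QL, BH-adjusted p = 3.67e-10). Ccl11 (eotaxin), a chemokine for eosinophils, had 0 counts in batch 1 and 8.13, 10.5 and 10.6 CPM in batch 2, at least 52.4-fold higher against the same floor of 3 counts. Sprr2a2, a cornified envelope protein with near-identical copies, was at 43.2, 68.5, 150, 55.1 and 68.5 CPM against 714, 647 and 1557 CPM (3.65, SE 0.51, edgeR QL, BH-adjusted p = 0.00657). The goblet cell mucin gene Muc5ac was below the count filter and uneven, at 8.13, 0 and 31.1 CPM in batch 2 and at most 1.23 CPM in batch 1.

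Of receptor and signalling genes of that response, Il4ra, Il13ra1 and Stat6 did not pass the test. In Il4ra, which was at -0.05 without BCAM high 6, and in Stat6 on TPM the sign turned. Il4ra, the shared receptor chain for interleukin-4 and interleukin-13, was at 48.4 to 56.3 CPM in batch 1 and 50.5 to 64.7 CPM in batch 2 (log2 difference 0.08, SE 0.17, edgeR QL, BH-adjusted p = 0.823). For Il13ra1 the difference was 0.22 (SE 0.16, BH-adjusted p = 0.416) and for Stat6 it was -0.12 (SE 0.13, edgeR QL, BH-adjusted p = 0.596). The goblet cell regulator Spdef was at 5.48 to 11.4 CPM and 4.44 to 13.4 CPM, with a difference of 0.19 (SE 0.43, edgeR QL, BH-adjusted p = 0.839; -0.22 without BCAM high 8). Cish and Agr2, also looked up after values were seen, were called higher by edgeR QL. Counts summed per batch were 799 and 833 for Cish, and 328 and 445 for Agr2. Limma on TPM and length offsets did not call Cish. Agr2 lost its call over all 24 libraries and without BCAM high 7.

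Channels and carriers of airway fluid transport, also gathered after the values had been seen, held further increases. Car12, a carbonic anhydrase, was at 1.23 to 7.15 CPM in batch 1 and 44.8 to 91.1 CPM in batch 2 (3.99, SE 0.33, edgeR QL, BH-adjusted p = 2.25e-07). The chloride channel gene Ano1 was at 100, 46.6, 92.8, 115 and 71.9 CPM against 359, 312 and 295 CPM, all 3 above the highest batch 1 value (1.92, SE 0.23, edgeR QL, BH-adjusted p = 4.75e-04). The potassium channel subunit gene Kcne3 changed by 2.81 (SE 0.33, edgeR QL, BH-adjusted p = 3.92e-06). The water channel gene Aqp3, a marker of basal cells, had 2706 to 2867 CPM and 2786 to 3010 CPM and was not called (0.08, SE 0.10, edgeR QL, BH-adjusted p = 0.675).

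Repressor and output genes of the clock were higher more often than lower. Of 13 tested repressors and output genes 9 were higher and 2 lower, against 7.25% and 5.2% of all genes, with a median log2 change of 1.35. Of 7 genes listed around the activators CLOCK and BMAL1, which include the repressors Cry1 and Nfil3, Arntl alone was called, lower, and the median was -0.56. Without 1 library the first list gave 7 to 9 higher and 1 or 2 lower, and limma on log2(TPM + 1) gave 7 and 1. Both lists were written with earlier results of these data known, so the counts are a description.

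The promoters of 4 of these genes are shown because they carry the textbook clock elements and their genes moved in both directions. The windows come from RefSeq (GRCm38.p6), run from 250 bases before to 50 bases after the gene's start, and are printed 5′ to 3′ on the gene's strand. Capitals mark matches on either strand to the E-box CACGTG (bound by CLOCK and BMAL1), the D-box TTANGTAA (bound by DBP and TEF) or the ROR element TAGGTCA (bound by ROR and NR1D proteins).
Per3, chr4:151044616-151044915, minus strand: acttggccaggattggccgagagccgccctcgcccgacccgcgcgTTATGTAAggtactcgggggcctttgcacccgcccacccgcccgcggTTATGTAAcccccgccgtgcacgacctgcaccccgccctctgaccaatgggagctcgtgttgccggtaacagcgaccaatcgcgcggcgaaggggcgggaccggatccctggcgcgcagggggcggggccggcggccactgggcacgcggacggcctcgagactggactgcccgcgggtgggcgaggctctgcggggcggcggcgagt
Tef, chr15:81802423-81802722, plus strand: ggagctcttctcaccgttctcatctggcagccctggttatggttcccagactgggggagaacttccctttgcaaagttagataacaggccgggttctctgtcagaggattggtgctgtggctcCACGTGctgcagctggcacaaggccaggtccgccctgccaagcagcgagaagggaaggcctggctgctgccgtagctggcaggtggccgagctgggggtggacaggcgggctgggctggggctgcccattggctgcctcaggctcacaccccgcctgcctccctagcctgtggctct
Bhlhe41, chr6:145865371-145865670, minus strand: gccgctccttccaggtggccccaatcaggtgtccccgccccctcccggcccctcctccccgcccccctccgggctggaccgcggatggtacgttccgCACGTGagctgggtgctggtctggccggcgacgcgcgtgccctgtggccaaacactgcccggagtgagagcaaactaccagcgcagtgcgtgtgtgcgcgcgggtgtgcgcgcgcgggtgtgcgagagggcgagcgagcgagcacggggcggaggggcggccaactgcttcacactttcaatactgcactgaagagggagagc
Arntl, chr7:113207261-113207560, plus strand: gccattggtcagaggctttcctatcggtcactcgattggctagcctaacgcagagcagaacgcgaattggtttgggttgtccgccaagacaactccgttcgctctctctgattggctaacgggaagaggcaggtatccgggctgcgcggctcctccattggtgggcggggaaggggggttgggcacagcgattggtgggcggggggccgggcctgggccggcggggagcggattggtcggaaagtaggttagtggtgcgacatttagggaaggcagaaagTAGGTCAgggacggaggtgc

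Per3 holds 2 D-box matches, 205 and 158 bases before the start, and Arntl holds its ROR element 31 bases after it, in 1 of the 2 windows listed for the gene. Of the 14 repressor and output genes, 12 had a window, of which 4 held an E-box (Per1, Tef, Bhlhe41 and Ciart), 1 a D-box and 0 the ROR element. Of the 6 genes with a window in the list around Arntl, 2 held the ROR element (Arntl and Nfil3) and 1 an E-box (Cry1). Among all 32851 windows, 7.15% held the E-box, 2.32% the D-box and 2.61% the ROR element. These are shares of single windows, whereas a gene was counted if any of its windows matched. A match is a description of the letters only, and elements outside these 300 bases were not searched.

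Dbp, an output factor that binds D-boxes, had 0, 1.85, 1.44, 2.43 and 2.84 CPM in batch 1 and 22.9, 26.0 and 30.4 CPM in batch 2, the largest change of the list (3.91, SE 0.46, edgeR QL, BH-adjusted p = 2.92e-06). Nr1d2, a repressor of Arntl, was at 29.9, 33.3, 17.01, 31.2 and 31.8 CPM against 184, 174 and 111 CPM (2.45, SE 0.20, edgeR QL, BH-adjusted p = 4.81e-08). Per3 was at 41.6, 46.3, 45.6, 38.1 and 48.9 CPM against 212, 233 and 154 CPM. It changed by 2.17 (SE 0.15, edgeR QL, BH-adjusted p = 3.40e-10).

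Per2, which with CRY proteins closes the negative loop, was at 24.7, 29.9, 46.13, 41.6 and 23.3 CPM in batch 1 and 176, 112 and 76.2 CPM in batch 2 (1.87, SE 0.29, edgeR QL, BH-adjusted p = 0.00225). Tef was at 74.7 to 98.6 CPM and 186 to 245 CPM (1.35, SE 0.14, edgeR QL, BH-adjusted p = 2.52e-07). Nr1d1 was at 54.5 to 157 CPM and 219 to 327 CPM. Its change of 1.53 (SE 0.34, edgeR QL, BH-adjusted p = 0.0300) lost its call without BCAM high 1, 2, 4, 6, 7 or 8 (1.43 to 1.69, BH-adjusted p 0.0528 to 0.112). Bhlhe41, at 36.1 to 53.4 CPM and 213.7, 102 and 67.4 CPM, changed by 1.52 (SE 0.34, edgeR QL, BH-adjusted p = 0.0238) and lost its call without BCAM high 1, 2, 3, 4 or 7 (1.45 to 1.66, BH-adjusted p 0.0518 to 0.0678), by limma voom and in the fit over all 24 libraries.

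Not every gene of the list followed. Per1, which also answers acute stimuli, was at 123 to 186 CPM and 129 to 174 CPM (0.05, SE 0.15, edgeR QL, BH-adjusted p = 0.890), and its sign turned without BCAM high 4 or 8 (-0.06 and -0.01). Usp2, a deubiquitinase under clock control, was lower, at 13.3 to 19.8 CPM and 4.61 to 6.71 CPM (-1.45, SE 0.35, edgeR QL, BH-adjusted p = 0.00651); limma on TPM and length offsets did not call it. Tsc22d3, also known as a glucocorticoid target, was at 791, 709, 771, 587 and 1434 CPM against 367, 276 and 398 CPM, lower by -1.31 (SE 0.33, edgeR QL, BH-adjusted p = 0.0459). That call was lost without BCAM high 1, 2, 3, 6, 7 or 8 (-1.42 to -1.16, BH-adjusted p 0.0700 to 0.161).

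Arntl had 244, 225, 193, 223 and 169 CPM in batch 1 and 65.5, 72.1 and 101 CPM in batch 2. Every batch 2 library lay below every batch 1 library, with a log2 change of -1.40 (SE 0.16, edgeR QL, BH-adjusted p = 1.99e-06). Its partner Clock was at 50.3 to 58.6 CPM and 39.8 to 47.3 CPM and was not called (-0.28, SE 0.17, edgeR QL, BH-adjusted p = 0.313). The Arntl difference was of like size in the other sorted populations, -1.35 in BCAM low and -1.44 in differentiated cells, and BCAM high departed from their mean by -0.02 (edgeR QL, BH-adjusted p = 0.992). For Dbp, Nr1d2, Per3 and Per2 that departure was 0.65, 0.61, 0.38 and 0.52, and none was called (edgeR QL, BH-adjusted p = 0.787, 0.414, 0.576 and 0.513). For Tef (0.98) and Usp2 (-1.77) it was called (edgeR QL, BH-adjusted p = 0.0213 and 0.0110). No label gives the hour at which cells were taken.

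**Figure D2:**
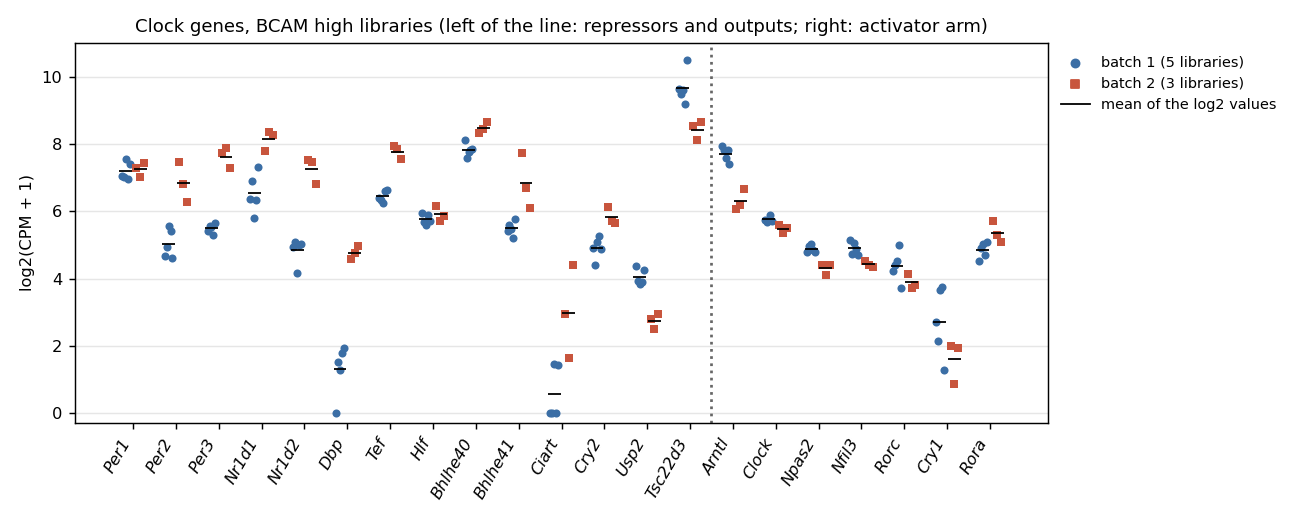
Levels of 21 clock genes as log2(CPM + 1) per library, 5 of batch 1 (circles) and 3 of batch 2 (squares), with repressors and output genes left of the dotted line and the genes listed around Arntl right of it. Dbp, Nr1d2, Per3, Per2 and Tef are higher in every batch 2 library, Arntl is lower in every one, and Per1 and Hlf overlap.

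The 12 largest decreases, ranked under the same conditions as the increases, ran from -4.27 to -2.05 on the log2 scale. In all, 14 called genes fell by at least 3, so larger decreases that missed these conditions are left out. The 12 held 3 aldo-keto reductase genes of the 1C family. Akr1c14, an aldo-keto reductase that acts on steroids, had 78.6, 89.5, 67.5, 82.5 and 77.3 CPM in batch 1 and 7.02, 3.35 and 3.88 CPM in batch 2 (-4.04, SE 0.25, edgeR QL, BH-adjusted p = 6.47e-11). Akr1c19, a neighbour in the same gene family, was at 13.1 to 24.4 CPM and 2.22, 0.419 and 0 CPM (-4.27, SE 0.59, edgeR QL, BH-adjusted p = 3.20e-05). Akr1c18, which inactivates progesterone, was at 51.6, 38.3, 68.3, 52.7 and 33.0 CPM against 7.76, 3.77 and 14.5 CPM (-2.46, SE 0.35, edgeR QL, BH-adjusted p = 2.37e-04). These family members share sequence, so the division of reads among them is uncertain.

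Several cytochrome P450 genes were called, in both directions. Cyp4b1 was at 1331, 1723, 1557, 1332 and 1411 CPM in batch 1 and 358, 363 and 406 CPM in batch 2, a change of -1.97 with an SE of 0.12 (edgeR QL, BH-adjusted p = 6.47e-11). Cyp4a12b, a fatty acid hydroxylase, was at 42.6 to 79.7 CPM and 8.87 to 15.9 CPM (-2.19, SE 0.26, edgeR QL, BH-adjusted p = 3.79e-06). Cyp2f2, a marker of mouse club cells, fell from 24685 to 31009 CPM to 12634 to 16111 CPM (-0.87, SE 0.10, edgeR QL, BH-adjusted p = 2.63e-06), and lost its call in the fit over all 24 libraries. Cyp2a5 went the other way, from 83.5 to 112 CPM up to 223 to 337 CPM (1.62, SE 0.14, edgeR QL, BH-adjusted p = 3.14e-08), so the family did not move as 1. It was noticed after its values were seen, as was Cyp2f2's place beside it.

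Gstm2, a glutathione transferase that conjugates reactive compounds, was at 1601, 1845, 1510, 1475 and 1661 CPM against 497, 622 and 566 CPM (-1.53, SE 0.12, edgeR QL, BH-adjusted p = 2.52e-09). Gstm1 fell as well (-0.90, SE 0.11, edgeR QL, BH-adjusted p = 5.45e-06). Of 17 tested genes of the oxidative defence list, 2 were higher and 4 lower, with a median of -0.14. Of all genes 7.25% were higher and 5.2% lower. Gclm, a subunit of the enzyme that starts glutathione synthesis, was among the higher ones, at 30.2 to 49.4 CPM and 73.9 to 92.6 CPM (1.03, SE 0.17, edgeR QL, BH-adjusted p = 2.81e-04).

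Genes of caveolae, small pits of the plasma membrane, stood out among the remaining decreases and were gathered after that was seen. Cavin2 had 282, 235, 230, 188 and 252 CPM in batch 1 and 61.0, 57.0 and 58.6 CPM in batch 2 (-2.01, SE 0.15, edgeR QL, BH-adjusted p = 1.22e-09). Cav1, the main coat protein, had 1125, 1208, 1141, 940 and 1386 CPM against 327, 223 and 341 CPM (-1.96, SE 0.15, edgeR QL, BH-adjusted p = 1.09e-08). Cavin1 was at 918 to 1065 CPM and 582 to 841 CPM, a smaller change (-0.52, SE 0.12, edgeR QL, BH-adjusted p = 0.00511), which was no longer called without BCAM high 7 (-0.40, BH-adjusted p = 0.0656), by limma on TPM or with length offsets.

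Among single genes, Apoe, a lipid carrier, fell from 1177 to 1486 CPM to 388 to 448 CPM (-1.65, SE 0.12, edgeR QL, BH-adjusted p = 9.14e-10); the fit over all 24 libraries gave -1.66 and no call (0.141). Penk, the enkephalin precursor, was at 19.3 to 31.8 CPM and at most 2.12 CPM (-4.05, SE 0.47, edgeR QL, BH-adjusted p = 2.38e-06). The phosphatase gene Alpl was at 50.7 to 98.1 CPM and 14.4 to 17.6 CPM (-2.24, SE 0.22, edgeR QL, BH-adjusted p = 2.27e-07). Atoh8, Egfl6, Cd200, Nrep and Pcdh9 changed by -2.46 to -2.05 on the log2 scale, and limma on TPM did not call Cd200 or Pcdh9. Lack of overlap between the batches was a condition for ranking them.

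**Figure D3:**
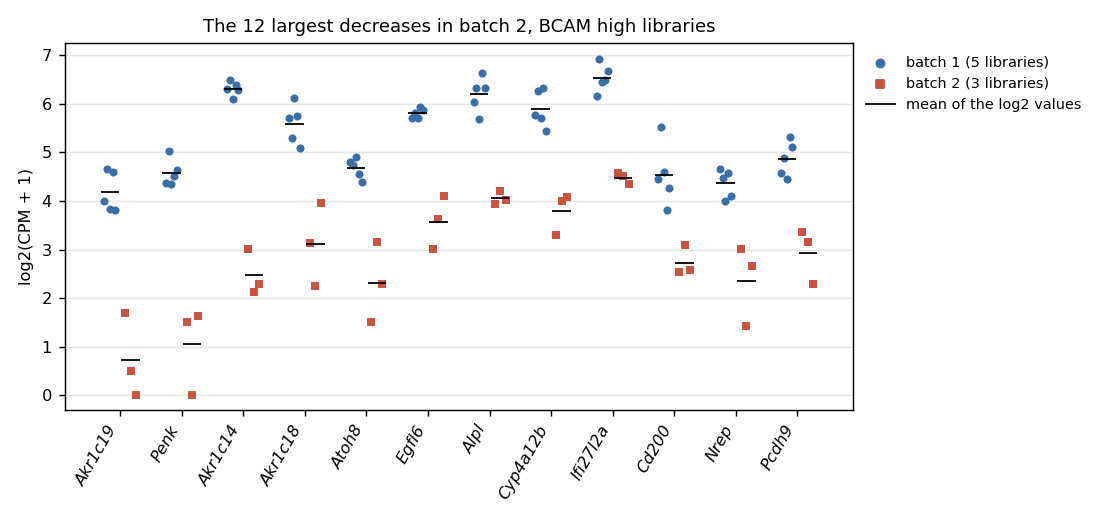
Expression of the 12 protein-coding genes with the largest called decreases, as log2(CPM + 1) per library, for 5 batch 1 libraries (circles) and 3 batch 2 libraries (squares), with a line at the mean of the log2 values. Akr1c14 lies at 67.5 to 89.5 CPM in batch 1, and for each gene every batch 2 library lies below every batch 1 library.

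Genes that mark basal cells were higher more often than lower. Of 15 tested, 6 were higher and 3 lower, beside 7.25% and 5.2% of all genes, with a median of 0.30. Trp63, the gene of p63, had 278, 304, 292, 359 and 235 CPM in batch 1 and 924, 766 and 436 CPM in batch 2 (1.27, SE 0.22, edgeR QL, BH-adjusted p = 0.00433). Ngfr, the nerve growth factor receptor used to sort basal cells, was at 200.1, 126, 174, 198 and 140 CPM against 270.3, 308 and 281 CPM (0.78, SE 0.14, edgeR QL, BH-adjusted p = 7.92e-04). Krt5 was at 1973, 1482, 1993, 1592 and 1778 CPM against 2517, 2191 and 2283 CPM. Its small change of 0.40 (SE 0.11, edgeR QL, BH-adjusted p = 0.0195) was no longer called without BCAM high 6 (0.34, BH-adjusted p = 0.128) or in the fit over all 24 libraries (0.490). Krt14 had 166, 65.7, 160.0, 185 and 101 CPM against 259, 66.2 and 336 CPM, overlapped, and was not called (0.70, SE 0.57, edgeR QL, BH-adjusted p = 0.507).

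Without BCAM high 6 the basal counts were 4 and 1, and over all 24 libraries 3 and 0. The 3 basal genes that were lower were Snai2, Pdpn and Dapl1. Snai2, a transcription factor that represses epithelial adhesion genes, was at 62.4, 65.7, 63.1, 45.1 and 81.8 CPM against 20.7, 32.7 and 43.4 CPM (-0.98, SE 0.23, edgeR QL, BH-adjusted p = 0.00590). It was no longer called without BCAM high 6 (-0.74, BH-adjusted p = 0.0560), by limma on TPM, with length offsets or over all 24 libraries. Pdpn, a surface mucin-type protein, changed by -0.59 (SE 0.11, edgeR QL, BH-adjusted p = 8.46e-04) and was not called on TPM or over all 24 libraries. Dapl1 lost its call in the same settings and without BCAM high 6 or 7.

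Adhesion genes rose or were not called. Of 15 tested genes for integrins, laminins and hemidesmosomes, 6 were higher and 0 lower, with a median of 0.30. Of all genes 7.25% were higher and 5.2% lower. Without BCAM high 6 or 7 the count was 2, without BCAM high 2 it was 3, and the other settings that lowered it were the fit over all 24 libraries (2), length offsets (2) and limma on TPM (1). Col17a1, a hemidesmosome collagen, was at 324, 285, 360, 340 and 290 CPM in batch 1 and 710, 637 and 499 CPM in batch 2 (0.94, SE 0.12, edgeR QL, BH-adjusted p = 1.35e-05). Lamb2, a laminin chain, changed by 0.65 (SE 0.14, edgeR QL, BH-adjusted p = 0.00229), and limma on TPM and length offsets did not call it.

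Bcam itself, the gene of the sorted protein, had 383, 446, 540, 620 and 580 CPM in batch 1 and 872, 755 and 613 CPM in batch 2. BCAM high 4 and 8 overlapped. The change of 0.54 (SE 0.15, edgeR QL, BH-adjusted p = 0.0212) lost its call without BCAM high 2, 6 or 7 (0.41 to 0.53, BH-adjusted p 0.0612 to 0.148), by limma on TPM, with length offsets and over all 24 libraries. In differentiated cells Bcam differed by 2.04 between the batches, and BCAM high departed from that by -1.50 (edgeR QL, BH-adjusted p = 0.0263).

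Secretory genes were split. Of 14 tested, 5 were higher and 2 lower, beside 7.25% and 5.2% of all genes, with a median of 0.25. Chil4, described above, is 1 of the 5. Bpifa1, an abundant secreted defence protein, had 7567, 8678, 5724, 6419 and 7871 CPM in batch 1 and 16415, 23200 and 20384 CPM in batch 2 (1.46, SE 0.13, edgeR QL, BH-adjusted p = 8.51e-07). Reg3g, an antibacterial lectin, had 231, 377, 344, 321 and 251 CPM against 1339, 1632 and 2670 CPM (2.63, SE 0.25, edgeR QL, BH-adjusted p = 4.65e-04). Bpifb1, a relative of Bpifa1, was at 2.08 to 10.1 CPM and 33.2 to 53.3 CPM (2.65, SE 0.32, edgeR QL, BH-adjusted p = 5.75e-06). The lower genes were Cyp2f2 and the retinal dehydrogenase gene Aldh1a1 (-0.95, SE 0.13, edgeR QL, BH-adjusted p = 2.98e-05), which was not called over all 24 libraries. Scgb1a1, the classic club cell product, was at 83.8 to 616 CPM and 38.5 to 469 CPM and was not called (0.03, SE 0.99, edgeR QL, BH-adjusted p = 0.991), with a sign that turned on TPM, by voom, with length offsets and without BCAM high 1, 2, 3, 5 or 6. In bulk RNA, fewer cells of a type and less RNA per cell cannot be told apart.

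Of 14 suprabasal and hillock genes, 2 were higher and 4 lower, beside 7.25% and 5.2% of all genes, with a median of -0.27. Ecm1, a secreted matrix protein, was at 114, 138, 144, 113 and 124 CPM against 38.5, 32.7 and 64.6 CPM (-1.48, SE 0.19, edgeR QL, BH-adjusted p = 1.43e-05), and Lgals3 (galectin-3) was at 771 to 899 CPM and 413 to 529 CPM (-0.85, SE 0.12, edgeR QL, BH-adjusted p = 2.28e-05). The hillock keratin gene Krt13 was at 25.01 to 36.4 CPM in batch 1 and 2.96, 13.0 and 54.4 CPM in batch 2, so its batch 2 libraries lay on both sides of batch 1 (-0.41, SE 0.74, edgeR QL, BH-adjusted p = 0.797). Without BCAM high 8 Krt13 was called lower (-2.0, edgeR QL, BH-adjusted p = 0.00228), and without BCAM high 6 its difference was 0.11. Without BCAM high 8, 1 gene of this list was higher and 8 were lower, and without BCAM high 6 it was 1 and 2.

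Some markers of other cell types moved with the batch. The 14 thyroid genes summed to 22.4 to 72.2 CPM in batch 1 and 552, 1560 and 115 CPM in batch 2, where most of the sum came from Tg, the precursor of thyroid hormones. Tg had 5.85, 12.3, 1.73, 10.8 and 43.2 CPM against 491, 1465 and 92.8 CPM (5.51, SE 1.15, edgeR QL, BH-adjusted p = 0.0297). Its call was lost without BCAM high 1, 2, 3, 4, 6 or 7 (4.28 to 5.69, BH-adjusted p 0.0624 to 0.0983), by limma voom (0.129) and with no filter (0.0512). In the same batch 2 libraries Chil4 was at 35234, 34510 and 38165 CPM. A relation between Tg and Chil4 was not tested. In differentiated cells Tg was at 9429 to 19572 CPM in batch 1 and 44437 to 105222 CPM in batch 2. Of 3 thyroid genes tested 2 were higher and 0 lower, beside 7.25% and 5.2% of all genes. Hhex was the other, at 0 to 1.15 CPM and 4.44 to 9.22 CPM (3.48, SE 0.78, edgeR QL, BH-adjusted p = 0.00397). Its counts were few, 9 in batch 1 and 52 in batch 2, and its call was lost without BCAM high 7.

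In this and the other lists below, calls stand beside 7.25% of all genes higher and 5.2% lower. The 12 immune genes summed to 142 to 447 CPM in batch 1 and 84.7 to 169 CPM in batch 2, with 1 of 7 tested lower and 0 higher. That gene, Csf1r, changed by -1.23 (SE 0.37, edgeR QL, BH-adjusted p = 0.0311) and lost its call without BCAM high 1, 2, 5, 7 or 8 and by voom, TPM, length offsets and the fit over all 24 libraries; Ptprc, the pan-leukocyte gene, was at most 4.83 CPM in any library. The 16 ciliated genes summed to 241 to 412 CPM and 106 to 169 CPM, and of 6 tested 1 was higher and 1 lower, with a median of -0.09. Pifo was the higher one, at 0 to 2.16 CPM and 4.19 to 12 CPM (3.01, SE 0.88, edgeR QL, BH-adjusted p = 0.0283), a call lost without BCAM high 6, 7 or 8, with length offsets and on log2(TPM + 0.1). Tppp3 held most of that sum in batch 1 and was lower (-1.83, SE 0.31, edgeR QL, BH-adjusted p = 0.00786), while Foxj1, the master gene of ciliated cells, was at 0.974 to 1.85 CPM and 2.96 to 6.71 CPM, below the count filter. The 10 neuroendocrine genes summed to at most 9.61 CPM, the 4 parathyroid genes to at most 13.6 CPM and the 6 erythrocyte genes to at most 10.1 CPM. The 10 fibroblast genes summed to 2795 to 3339 CPM in batch 1 and 2179 to 2234 CPM in batch 2. Of 4 tested Dcn alone was called, lower, at 464 to 783 CPM and 190 to 244 CPM (-1.49, SE 0.15, edgeR QL, BH-adjusted p = 9.02e-07), and the defining collagen gene Col1a1 was at most 4.55 CPM. Pecam1 of the endothelial list was higher (1.47, SE 0.36, edgeR QL, BH-adjusted p = 0.0137) and lost its call without BCAM high 6 or 7, by voom, on TPM and over all 24 libraries. Sox9 of the cartilage list was higher as well (1.38, SE 0.43, edgeR QL, BH-adjusted p = 0.0346), a call lost without any 1 library other than BCAM high 5, with length offsets and on TPM. Gnat3 of the tuft list, Cnmd of the cartilage list and Hbb-bt of the erythrocyte list were at 0 in all 8 libraries. The part of these cell types in the differences above was not tested.

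Of 18 interferon-stimulated genes tested, 0 were higher and 7 lower, beside 7.25% and 5.2% of all genes. Above 0 lay 4, and the median was -0.99. Limma on TPM called 3 or 4 lower by pseudocount, and 1 gene was higher without BCAM high 8 or with no filter. Ifit1, which binds foreign RNA, had 28.9, 24.1, 27.4, 26.3 and 31.0 CPM in batch 1 and 7.76, 6.29 and 9.88 CPM in batch 2 (-1.77, SE 0.28, edgeR QL, BH-adjusted p = 9.82e-05). Ifi27 had 275 to 348 CPM against 119 to 163 CPM (-1.04, SE 0.14, edgeR QL, BH-adjusted p = 1.04e-05). Rtp4 fell (-1.46, SE 0.27, edgeR QL, BH-adjusted p = 8.14e-04), and so did Ifi27l2a, an interferon-inducible gene outside the list, from 70.8 to 120 CPM to 19.4 to 22.9 CPM (-2.13, SE 0.19, edgeR QL, BH-adjusted p = 4.76e-08).

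The promoter of Ifit1 is shown as an example of the element this list is known for, the interferon-stimulated response element, searched on both strands as a pair of GAAA blocks with 2 bases between and marked in capitals. It is followed by that of Retnla, the 1 gene among the 12 largest increases (8 had a window) that held TTC and GAA with 4 bases between, the spacing known for STAT6.
Ifit1, chr19:34640639-34640938, plus strand: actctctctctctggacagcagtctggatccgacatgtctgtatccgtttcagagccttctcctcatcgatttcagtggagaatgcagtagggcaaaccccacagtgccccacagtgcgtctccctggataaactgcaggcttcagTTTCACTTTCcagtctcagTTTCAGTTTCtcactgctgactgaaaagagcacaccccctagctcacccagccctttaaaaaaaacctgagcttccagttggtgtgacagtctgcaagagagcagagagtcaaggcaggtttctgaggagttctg
Retnla, chr16:48842359-48842658, plus strand: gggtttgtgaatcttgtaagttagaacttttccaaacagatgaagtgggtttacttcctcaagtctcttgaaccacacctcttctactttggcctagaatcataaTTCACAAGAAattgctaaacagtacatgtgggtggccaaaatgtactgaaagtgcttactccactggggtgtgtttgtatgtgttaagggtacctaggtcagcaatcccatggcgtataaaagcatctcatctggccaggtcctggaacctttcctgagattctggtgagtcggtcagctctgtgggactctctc

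Ifit1 has 2 matches, 104 and 85 bases before the start, and Retnla has 1, 145 bases before it. Of 14 interferon list genes with a window, 10 held the interferon element in at least 1 of their windows. Among all single windows 3.44% held it, a share per window and not per gene. The STAT6 spacing was in 6.95% of all windows.

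Antigen presentation genes were lower or not called. Of 10 class I genes, 0 were higher and 3 lower, beside 7.25% and 5.2% of all genes, with a median of -0.23. B2m, the light chain shared by class I molecules, had 334, 432, 365, 366 and 399 CPM in batch 1 and 220, 182 and 184 CPM in batch 2 (-0.96, SE 0.13, edgeR QL, BH-adjusted p = 1.35e-05). H2-D1, a classical class I heavy chain, changed by -0.42 (SE 0.11, edgeR QL, BH-adjusted p = 0.0147), a call lost without BCAM high 6 or 7 (-0.40 to -0.37, BH-adjusted p 0.0685 to 0.0916). The H2-D1 call was also lost over all 24 libraries, with length offsets and by limma on TPM, where log2(TPM + 0.1) gave -0.21 (BH-adjusted p = 0.331). The class II calls, H2-Aa and H2-Eb1, were lost on leaving out any of 5 libraries each, 1, 3, 7 and 8 among them (BH-adjusted p 0.0531 to 0.186). Both were also lost by voom, on TPM, with length offsets and over all 24 libraries.

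Ribosomal protein genes were all on 1 side. All 40 tested had a log2 difference below 0, from -0.66 to -0.10, with a median of -0.34. Of these, 19 were lower and 0 higher, beside 5.2% and 7.25% of all genes. The number called depended on the libraries and the scale: 5 without BCAM high 6, 6 without BCAM high 7, 29 without BCAM high 8 and 1 by limma on TPM, where the list's median was -0.24. Rplp1, a stalk protein of the large subunit, had 1700, 1823, 1957, 1765 and 2066 CPM in batch 1 and 1072, 1120 and 1342 CPM in batch 2 (-0.66, SE 0.11, edgeR QL, BH-adjusted p = 2.90e-04).

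All 13 tested transcripts of the mitochondrial genome were below 0 with a median of -0.73. Of these, 4 were called lower and 0 higher, beside 5.2% and 7.25% of all genes. The DESeq2 Wald test called 8 and limma on TPM 2. Their sum was 40938 to 57340 CPM in batch 1 and 20492 to 36543 CPM in batch 2. mt-Nd2, a subunit of complex I, had 957, 1299, 1209, 862 and 1096 CPM against 379, 603 and 613 CPM (-1.03, SE 0.17, edgeR QL, BH-adjusted p = 9.64e-04). Of 30 nuclear genes of oxidative phosphorylation, 0 were called in either direction by edgeR QL, with 5 lower and 0 higher at an unadjusted p under 0.05, 1 lower by the DESeq2 Wald test and 4 lower without BCAM high 8. Their median was -0.08 and turned to 0.02 on the TPM scales.

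Signalling lists showed a few called members each, where 7.25% of all genes were higher and 5.2% lower. No list was tested against those shares. Areg, an EGF receptor ligand, was at 3.25, 4.32, 6.63, 1.73 and 5.97 CPM in batch 1 and 40.3, 13.0 and 29.3 CPM in batch 2 (2.63, SE 0.39, edgeR QL, BH-adjusted p = 7.65e-05), and Dusp6, a phosphatase that damps ERK signalling, was lower (-0.91, SE 0.14, edgeR QL, BH-adjusted p = 9.64e-05). In the EGF list 2 of 11 were higher and 1 lower. Of 13 YAP targets 0 were higher and 3 lower, with Ccn2, a secreted matrix-associated protein, at 34.0 to 56.2 CPM and 6.00 to 22.6 CPM (-1.75, SE 0.31, edgeR QL, BH-adjusted p = 0.00128). Among 14 secreted matrix genes 2 were higher and 3 lower; the higher were Tnc (tenascin C; 2.52, SE 0.33, edgeR QL, BH-adjusted p = 3.40e-05) and Fn1 (fibronectin; 1.78, SE 0.25, BH-adjusted p = 8.46e-04). Of 11 Notch genes 3 were higher and 0 lower, a count that was 0 without BCAM high 6 or 7 and 0 in the fit over all 24 libraries.

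Of 24 immediate early genes, which answer handling and growth signals within minutes, 4 were higher and 3 lower, with a median of 0.09. Of all genes 7.25% were higher and 5.2% lower. Egr3 was at 2.78 to 6.82 CPM and 15.5 to 21.4 CPM (2.01, SE 0.37, edgeR QL, BH-adjusted p = 8.07e-04), and Fosb changed by 1.05 (SE 0.20, BH-adjusted p = 0.00505), whereas Zfp36, which destabilizes cytokine messages, was at 611 to 886 CPM and 224 to 437 CPM (-1.12, SE 0.20, edgeR QL, BH-adjusted p = 0.00401). Limma on TPM and length offsets did not call Egr3. Of 14 heat shock and chaperone genes 0 were called by edgeR QL or DESeq2, with 2 higher and 2 lower at an unadjusted p under 0.05. Mitosis and DNA replication genes gave 2 of 18 and 1 of 20 lower, with 0 higher in either list, beside 5.2% of all genes. No mitosis gene was called without BCAM high 1, 3, 5, 7 or 8, where 16 to 19 were tested, nor a replication gene without BCAM high 7 or 8.

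**Figure D4:**
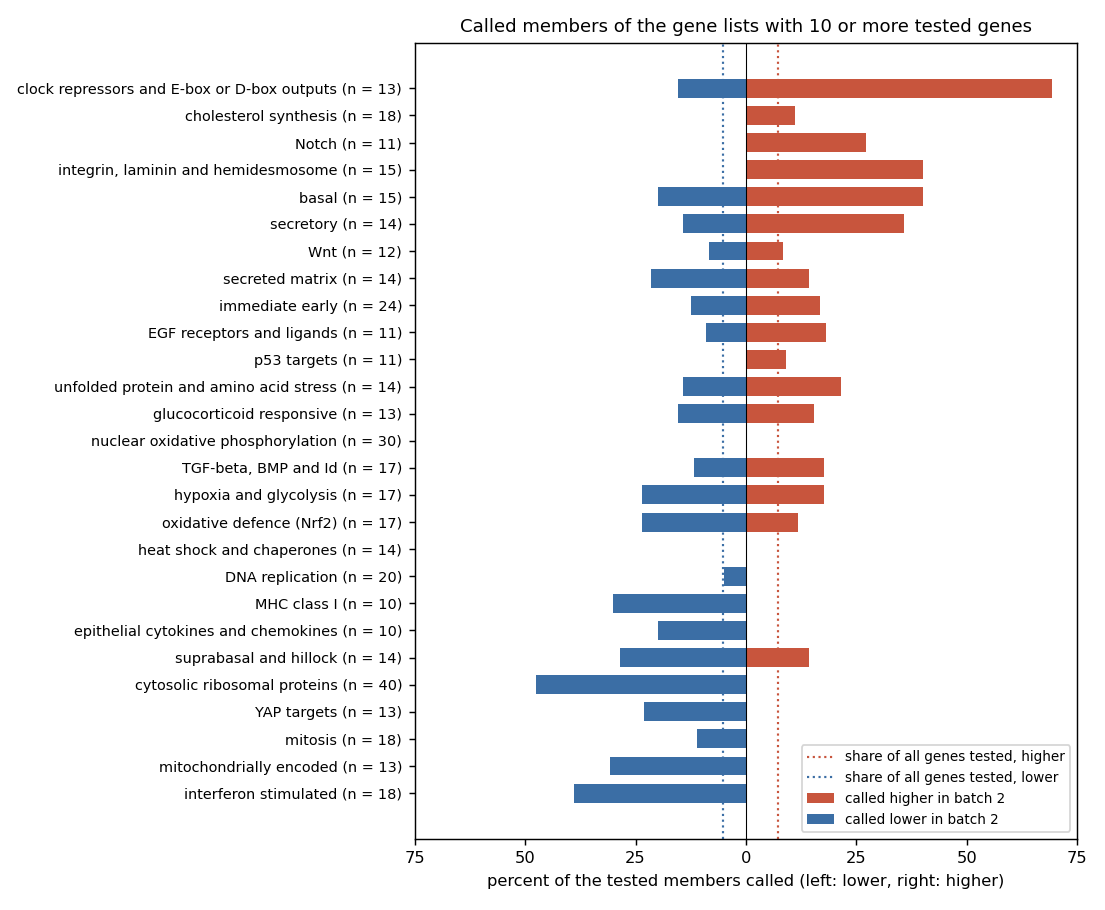
Share of the tested members of each list that edgeR QL called higher (right) or lower (left) in batch 2, for the lists with 10 or more tested genes, sorted by median log2 change, with dotted lines at the shares of all genes tested (7.25% higher, 5.2% lower). The lists chosen after values were seen are not drawn; among those drawn, clock repressors and outputs (9 of 13) reach farthest to the right, and ribosomal proteins (19 of 40) and interferon-stimulated genes (7 of 18) to the left.

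Most of the batch differences had the same sign in BCAM low, and fewer did so in differentiated cells. Of the 890 genes higher in BCAM high, 880 were tested in BCAM low, where 749 had the same sign. Of these genes 252 were called there in the same direction (28.3% of the 890 and 35.3% of the 714 called higher in BCAM low) and 3 in the opposite one. In differentiated cells 836 were tested, 547 had the same sign, 150 were called in the same direction (16.9% of the 890 and 14.7% of 1019) and 69 in the opposite one. Of the 638 lower genes, 561 of 631 tested had the same sign in BCAM low and 446 of 585 in differentiated cells; 209 were also lower in BCAM low (32.8% of the 638 and 40.7% of 513) and 188 in differentiated cells (29.5% and 19.9% of 944). Each population was fitted on its own 8 libraries, and libraries of a batch share that batch across populations. The shares of all genes called, or of the same sign, in BCAM low and differentiated cells are not given here. The overlaps are therefore a description and no measure of agreement beyond that background.

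The difference between populations was tested by fitting the 24 libraries together, each population and batch having its own mean. The batch difference of BCAM high departed from the mean of both others for 357 of 13770 genes (2.59%), from BCAM low for 133 (0.966%) and from differentiated cells for 1056 (7.67%). This fit ignored the replicate number. With it as a block, departures from the mean of both others were 342 higher and 240 lower, against 196 and 161 without. Fer1l6 rose by 7.33 in BCAM high and 7.08 in BCAM low but by 1.32 in differentiated cells, a departure of 3.11 from their mean (SE 0.58, edgeR QL, BH-adjusted p = 0.00433). Pigr rose by 5.13 and 3.65 in the BCAM populations and differed by -0.78 in differentiated cells (departure 3.68, edgeR QL, BH-adjusted p = 0.00839). Bpifa1 was higher by 1.46 in BCAM high and by 0.84 in BCAM low, the latter uncalled. In differentiated cells Bpifa1 differed by -3.35, from 125782 to 162905 CPM down to 4971 to 40232 CPM. The departure of BCAM high from the mean of both others was 2.71 (edgeR QL, BH-adjusted p = 0.00985). From BCAM low alone it was 0.62, with no call by that test.

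Some other genes, unlike these, moved against BCAM low. Tuba1a, an alpha-tubulin gene, had 152, 153, 183, 144 and 153 CPM in batch 1 and 81.0, 45.3 and 75.5 CPM in batch 2 of BCAM high (-1.22, SE 0.17, edgeR QL, BH-adjusted p = 2.38e-05). In BCAM low it was higher by 1.19 and in differentiated cells by 0.92, so that BCAM high departed by -2.28 (edgeR QL, BH-adjusted p = 5.02e-04). Rsph9, a radial spoke protein of motile cilia, was at 12.2 to 20.4 CPM and 3.53 to 5.55 CPM (-1.84, SE 0.38, edgeR QL, BH-adjusted p = 0.00194) and was higher by 0.93 in BCAM low, a departure of -2.45 (edgeR QL, BH-adjusted p = 9.86e-04). The departures of Tuba1a, Rsph9, Fam47e, Fmo6, Bpifa1, Pigr and Fer1l6 were called under every alternative run, while those of Alox12e (3.27), Egfl6 (-2.34) and Akr1c14 (-2.18) were lost without some library: any of 6, any of the 8, and BCAM high 7 or 8 (BH-adjusted p up to 0.0912, 0.136 and 0.0977).

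**Figure D5:**
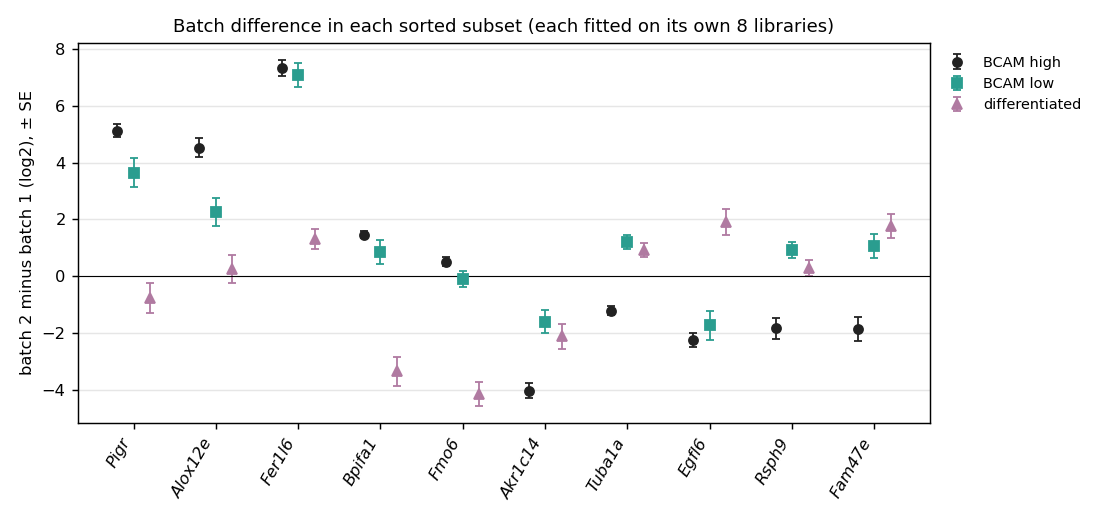
Batch 2 minus batch 1 on the log2 scale with SE, for the 10 genes whose batch difference in BCAM high departed most from the mean of the other populations. BCAM high (circles) comes from its own 8 libraries, while BCAM low (squares) and differentiated cells (triangles) come from the fit over 24 libraries. The panel title therefore holds for BCAM high alone, and the SE bars come from different fits. Fer1l6, Pigr and Alox12e are higher in both BCAM populations, and Tuba1a, Rsph9 and Fam47e are lower in BCAM high but higher in BCAM low.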

How the data were processed

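The authors deposited kallisto tables with estimated counts and TPM (length- and depth-scaled abundance) for each transcript; kallisto 46.1, Picard and GRCm39 are named per the submitters' processing notes. Estimated counts were summed per gene by GENCODE M21 names and rounded. EdgeR 4.0.16 (R 4.3.3; TMM, filterByExpr, robust quasi-likelihood) compared 5 with 3 BCAM high libraries. Changes between populations came from 1 fit over 24 libraries. The steps were tested on simulated counts. Alternatives used DESeq2 1.42.0, limma 3.58.1 (voom and TPM), other filters, length offsets and left-out libraries.

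The comparison and the 44 gene lists were chosen with earlier results of these data known, and 7 further lists after values were seen. Genes were named by rule: 5 basal genes, per direction the 12 largest and 5 best supported protein-coding calls without overlap whose mean reached 10 CPM, up to 4 called members of each list, and up to 5 per direction that departed from the other populations. All other genes with values were chosen after their values were seen: members of the fixed lists such as Tef, Nr1d1, Bhlhe41, Usp2, Per1, Clock, Pdpn, Krt13, Aldh1a1, Scgb1a1 and Ifi27, and those said so in the text. Replicate numbers were not used as a block, because the labels do not say that they pair libraries. Same-numbered libraries of different populations correlated weakly but above 0 (0.008 to 0.153). These were deviations from the mean of each population and batch, so libraries without pairing would scatter around 0, whereas all 24 correlations lay above it. No comparison with differently numbered libraries was made. Pairing by number therefore remains possible, and the main fits ignore it. Some single-gene results are not reported here.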

Additional observations from a re-analysis of the deposited data

Results flagged for a closer look

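Of 135 genes examined, the 14 given here had a batch 1 library far from the other 4 of BCAM high, where chance gives about 1 in 20. BCAM high 5 was highest for Chil4 (212 CPM), Gsdmc2 (10.5 CPM), Tg (43.2 CPM), Sox9 (8.81 CPM), Tsc22d3 (1434 CPM) and Fn1 (55.7 CPM), and lowest for Pfkp (53.4 CPM). BCAM high 4 was lowest for Hpgds (1.73 CPM) and Nfkbia (313 CPM) and highest for Rpl35 (106 CPM). BCAM high 3 was lowest for Nr1d2 (17 CPM) and highest for Fam47e (27.1 CPM) and Tuba1a (183 CPM). BCAM high 2 was lowest for Ccn2 (33.9 CPM).

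The batch difference of BCAM high, batch 2 minus batch 1 on the log2 scale, departed from the mean of the other populations by edgeR's test of that contrast for the following genes. The departure was above 0 for Pigr (3.68), Alox12e (3.27), Fer1l6 (3.11), Bpifa1 (2.71), Fmo6 (2.64), Col17a1 (2.31), Ngfr (2.29), Gclm (1.11), Srebf2 (0.81), Gstm1 (0.80) and mt-Nd2 (0.75). It was below 0 for Fam47e (-3.28), Rsph9 (-2.45), Egfl6 (-2.34), Tuba1a (-2.28), Akr1c14 (-2.18), Alpl (-1.39), Mt1 (-0.92) and Id1 (-0.76). Among genes chosen after their values were seen it was 1.88 for Cyp2a5, 1.77 for Cbr2, 1.46 for Krt15, 0.98 for Tef, 0.96 for Aqp3, -1.49 for Cyp2s1 and -1.77 for Usp2. Against BCAM low alone the departure was not called for Pigr (1.47), Alox12e (2.26), Fer1l6 (0.22), Bpifa1 (0.62), Col17a1 (0.59) or Ngfr (0.41). Nor was it for Egfl6 (-0.52), Alpl (-0.55), Mt1 or Id1 (0.14), whereas for Akr1c14 (-2.44) it was (edgeR QL, BH-adjusted p = 0.0352). In differentiated cells Col17a1 was at most 4.91 CPM and Ngfr at most 9.37 CPM.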

How the results depend on the processing

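The counts of 890 higher and 638 lower genes became 589 and 348 in 1 fit over 24 libraries, 385 and 262 with length offsets, 335 and 130 on log2(TPM + 1), 294 and 119 on log2(TPM + 0.1) and 61 and 22 against a minimum log2 change of 1. Leaving out 1 library gave 475 to 950 higher and 311 to 740 lower. The other settings (DESeq2, voom and other filters) stayed within 1.5 times. Of 124 called genes that the rule names, 67 to 123 stayed called in these settings other than the minimum change, 88 to 117 without 1 library, and 0 reversed. Without a filter the median of all genes moved to -0.16.

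Departures from the mean of the other populations (196 higher, 161 lower) numbered 342 and 240 with the replicate number as a block, 294 and 276 with no filter, and 90 to 161 and 68 to 142 without 1 library. Against BCAM low (21 and 112) they numbered 60 and 132 with the block, 66 and 201 with no filter, and 6 to 18 and 53 to 112 without 1 library. The correlations behind the pairing were 0.008 to 0.153, with 5 of 24 over 0.1. The cause of these changes was not tested.

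Among genes that the rule names, signs turned for 2, Kdm5d and Uty, both uncalled. Both are Y chromosome genes, although the mice are labelled female. The 4 Y chromosome genes listed summed to 11.0 to 20.8 CPM in batch 1 and 14.8 to 20.95 CPM in batch 2, most of it Kdm5d. The source of these counts was not tested. Kdm5d was 0.34 and 0.23 on TPM (+ 0.1 and + 1), 0.17 with length offsets, and -0.14 to 0.02 without 1 library. Uty was -0.20 by voom and -0.51 to 0.59 without 1 library. Genes below the count filter were not tested at this depth.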
